A study of Mus musculus with 74 samples.

Results

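Keap1 was followed through every pair it formed in a pool of lentiviral constructs that each carried 2 guides into lung tumours of mice. Keap1 is 1 of the 17 genes of the pool. Its tumours were those with a Keap1 guide in either place of the construct, leaving out constructs that repeat 1 guide and those with a spike-in or a guide named NE. There were 31587 such tumours in 9 KT mice, 11298 in 45 KT_H11_Cas9 mice and 6284 in 20 KT_H11_LSL-Cas9 mice. Of these, 3800, 1464 and 734 held Keap1 beside an inert guide (named safe, NT or EGFP), and 1466, 1107 and 400 tumours held inert guides alone.

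All mice carried a Cre-dependent oncogenic allele and a Cre-dependent Tomato reporter, so that tumours started where the virus, which also carries Cre, entered lung cells. KT mice had no Cas9 and showed what the pool gives without cutting. KT_H11_Cas9 mice carried Cas9 at the H11 locus, and in KT_H11_LSL-Cas9 mice Cre first had to remove a stop cassette before Cas9 was made. Lungs were taken about 3 months after infection, 32 µg of their DNA went into the amplification of barcode and guides, and each tumour was listed with its reads and its estimated cells. The labels do not say which mice shared a litter or a day, and no viral dose was found in them.

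KEAP1 is the adaptor that brings the transcription factor NRF2 to a CUL3 ubiquitin ligase, so NRF2 stays low while KEAP1 works. Oxidative or electrophilic stress blocks it, and NRF2 then turns on genes of glutathione synthesis, thioredoxin and detoxification. KEAP1 is lost in part of human lung adenocarcinomas, often together with LKB1.

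The Keap1 tumours of a mouse numbered 1902 to 6191 in KT (median 2942), 119 to 536 in KT_H11_Cas9 (median 245) and 0 to 620 in KT_H11_LSL-Cas9 (median 347.5). 1 read stood for 4.82, 7.96 and 12.9 cells in the median mouse of each group, and the smallest tumour listed in a mouse had 50.4 to 56.2, 50.1 to 105 and 50.4 to 369 cells. Small tumours were therefore estimated most coarsely in KT_H11_LSL-Cas9. 2 KT_H11_LSL-Cas9 mice stood apart with 16 and 4 tumours of any kind, and both lacked the 5 inert/inert tumours that a number value needed. The spike-in total of a mouse was near 100000 cells (5 KT and 25 KT_H11_Cas9 mice) or near 300000 cells (4, 20 and 20 mice), and mouse names in KT_H11_LSL-Cas9 began with HC (15) or MT (5), letters that no other group had. Those letters and that genotype cannot be told apart. Near 100000 cells the 5 KT mice had names with SL and the 25 KT_H11_Cas9 mice names with LA. Letters and genotype cannot be told apart there either. Near 300000 cells names began with LA in the 4 KT mice, and with LA (14) or CM (6) in KT_H11_Cas9.

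With Cas9, Keap1/inert tumours were fewer. Number is given as the log2 ratio of Keap1/inert to inert/inert tumours of a mouse, with 0.5 added to both, and Cas9 mice are set against KT mice, because the pool fixes the ratio without cutting. In KT the ratio lay between 1.25 and 1.48 (median 1.37, 9 mice). In KT_H11_Cas9 it ran from -0.65 through a median of 0.35 to 2.27 (45 mice), and in KT_H11_LSL-Cas9 from 0.08 through 0.88 to 1.68 (17 mice). 44 of 45 KT_H11_Cas9 mice lay below every KT mouse and 1 lay above, while in KT_H11_LSL-Cas9 13 of 17 lay below and 1 above.

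The difference from KT was -0.97 ± 0.07 (SE) in KT_H11_Cas9, a 0.509-fold number (adjusted p = 3.4e-05 by label permutation over the 17 genes), and -0.48 ± 0.10 in KT_H11_LSL-Cas9, a 0.718-fold number (adjusted p = 0.00408). A fall in number passed at an adjusted p under 0.05 for 52.9% of the 17 genes in KT_H11_Cas9 and for 23.5% in KT_H11_LSL-Cas9. The loss of Keap1/inert tumours was larger in KT_H11_Cas9 than in KT_H11_LSL-Cas9 by -0.50 ± 0.12 (adjusted p = 0.00119, label permutation), as it was for 23.5% of genes. In KT_H11_Cas9 the difference was -1.02 ± 0.11 in the 25 mice with the lower spike-in total and -0.92 ± 0.10 in the 20 with the higher. In KT_H11_LSL-Cas9, which has no mice near 100000, the value near 300000 was -0.45 ± 0.11 and missed the threshold (adjusted p = 0.0748, 4 KT mice). The p-values measure the spread between mice. In bulk lung DNA, fewer tumours begun and fewer tumours grown past the smallest listed size cannot be told apart.

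**Figure D1:**
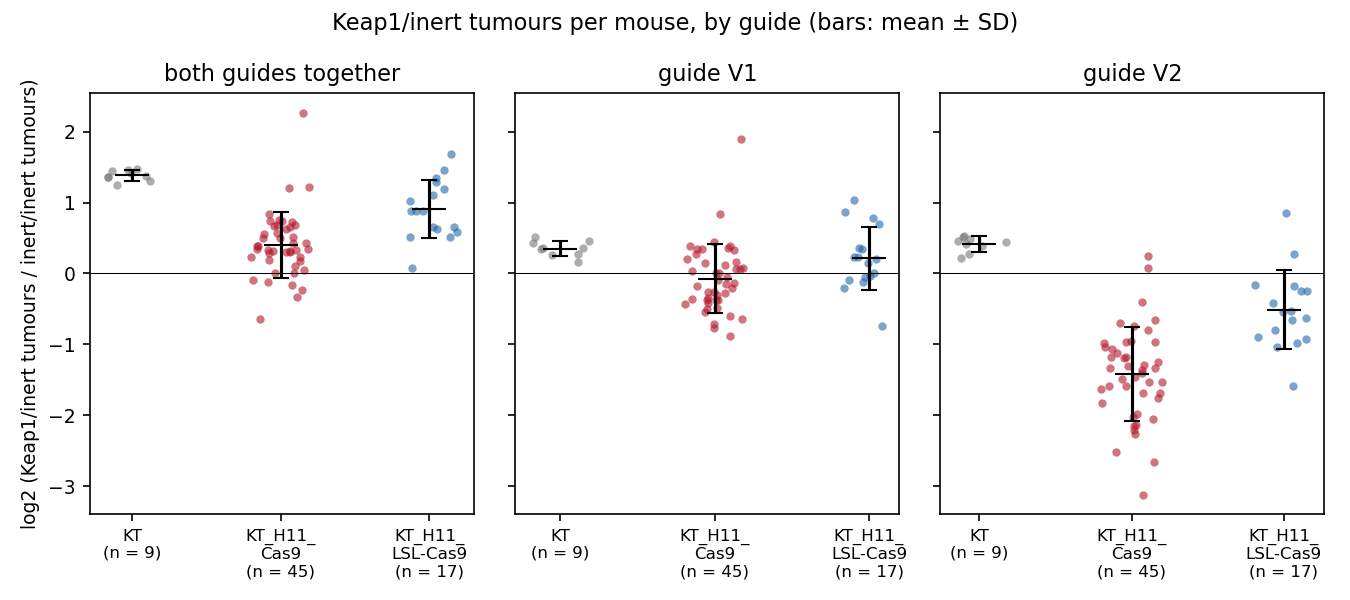
Each point is a mouse, and the vertical axis is the log2 ratio of Keap1/inert to inert/inert tumours for both guides together, guide V1 and guide V2, with bars for the mean ± SD. The 9 KT mice sit close together, and guide V2 lies lowest in KT_H11_Cas9, where its mean is 1.83 below that of KT.

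Both Keap1 guides contributed unequally. Guide V2 gave a ratio of 0.22 to 0.53 in KT and of -3.12 through a median of -1.37 to 0.24 in KT_H11_Cas9, a difference of -1.83 ± 0.10 or 0.281-fold (adjusted p = 3.86e-05 by label permutation), with 44 of 45 mice below every KT mouse. Guide V1 gave 0.16 to 0.51 in KT and -0.89 through -0.13 to 1.90 in KT_H11_Cas9, a difference of -0.42 ± 0.08 or 0.747-fold (adjusted p = 0.00039), with 33 of 45 mice below. Across all guides of the pool 48.1% fell in number in KT_H11_Cas9 and 25.9% in KT_H11_LSL-Cas9. In KT_H11_LSL-Cas9 guide V2 differed from KT by -0.93 ± 0.14 (adjusted p = 0.00027) and guide V1 by -0.13 ± 0.11 (adjusted p = 0.463).

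Set against each other in the same mice, guide V2 gave fewer tumours than guide V1 by -1.41 ± 0.10 in KT_H11_Cas9 (adjusted p = 3.33e-05, label permutation) and by -0.79 ± 0.15 in KT_H11_LSL-Cas9 (adjusted p = 5e-05). Guides of a gene differed in number for 50% of the 10 genes with 2 guides in KT_H11_Cas9 and for 30% in KT_H11_LSL-Cas9, so unequal guides were common in this pool. Tumour size did not separate the guides: guide V2 minus guide V1 was 0.08 ± 0.11 (40 mice, adjusted p = 0.623 by permutation) and 0.12 ± 0.10 (17 mice, adjusted p = 0.632). How often each guide cut its site is not in the files, and its part in the difference was not tested.

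Number also differed by the place of the guide in KT_H11_Cas9. Guide V2 in place 1 reached -2.47 ± 0.17, a 0.180-fold number, with 45 of 45 KT_H11_Cas9 mice below every KT mouse, and in place 2 it reached -1.30 ± 0.12. Guide V1 in place 1 reached -0.52 ± 0.09, and in place 2 -0.22 ± 0.11, which missed the threshold (adjusted p = 0.0917, permutation). Of all guides by place, 37.7% fell. For the gene as a whole, place 1 minus place 2 was -0.37 ± 0.09 in KT_H11_Cas9 (adjusted p = 0.016, permutation), and 25% of the 16 genes in both places differed by place. In KT_H11_LSL-Cas9 it was -0.20 ± 0.145 and missed the threshold (adjusted p = 0.516, permutation).

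Tumours with both Keap1 guides were rarer still. There were 691 in KT, 148 in KT_H11_Cas9 and 114 in KT_H11_LSL-Cas9. Against inert/inert their number differed from KT by -1.85 ± 0.14 in KT_H11_Cas9 (0.278-fold, 45 of 45 mice below every KT mouse, adjusted p = 2.5e-05 by permutation) and by -0.71 ± 0.15 in KT_H11_LSL-Cas9 (adjusted p = 0.0015). A gene's tumours with both guides fell for 40% of the 10 genes in KT_H11_Cas9 and for 20% in KT_H11_LSL-Cas9. Against tumours with 1 Keap1 guide the difference was -0.87 ± 0.14 in KT_H11_Cas9 (adjusted p = 0.0002), where 40% of genes differed in either direction, and -0.23 ± 0.13 in KT_H11_LSL-Cas9 (adjusted p = 0.456). All these tumours held guide V2, and 1-guide tumours held it only in part. Guide V2 beside inert stood at -1.83 ± 0.10 in KT_H11_Cas9 and -0.93 ± 0.14 in KT_H11_LSL-Cas9, against -1.85 ± 0.14 and -0.71 ± 0.15 for both guides together.

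The deficit ran through all sizes in KT_H11_Cas9. Against inert/inert tumours of the same size class, the difference from KT was -0.95 under 100 cells, -0.78 from 100 to 200, -1.26 from 200 to 500, -1.50 from 500 to 1000 and -0.79 from 1000 cells up, and all 5 classes passed, where 27.1% of all genes and classes fell. In KT_H11_LSL-Cas9 the values were -0.40, -0.53, -0.71, -1.15 and -0.30, and the middle 3 classes passed against a background of 9.41%. The class of 1000 cells and more held 116 Keap1/inert tumours in KT_H11_Cas9 and 48 in KT_H11_LSL-Cas9, beside 62 and 18 inert/inert tumours. From 500 to 1000 cells there were 93 and 34 inert/inert tumours, so ratios of single mice rest on few tumours. With tumours of all mice summed, these 2 upper classes gave -1.49 (500 to 1000) and -0.61 in KT_H11_Cas9. In KT_H11_LSL-Cas9 they gave -0.95 and -0.10. These sums were not tested.

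**Figure D2:**
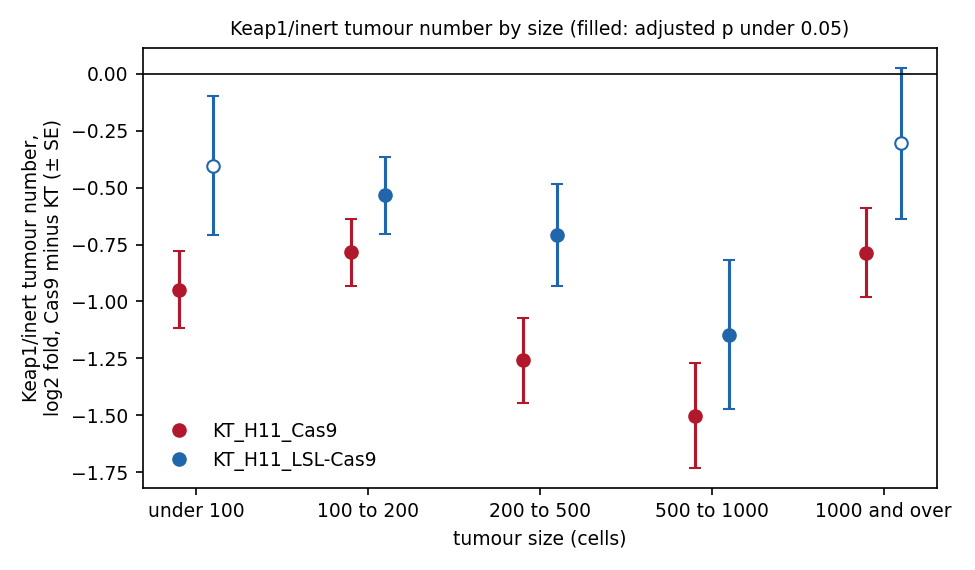
The horizontal axis gives 5 classes of tumour size in cells and the vertical axis the log2 fold of Keap1/inert tumour number, Cas9 minus KT, with SE. In both genotypes the lowest value is that of 500 to 1000 cells, at -1.50 and -1.15.

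Keap1 beside an inert guide did not change tumour size beyond the spread between mice. Size is the mean log2 cells of Keap1/inert minus that of inert/inert tumours in the same mouse. It ran from -0.67 through a median of -0.06 to 1.41 in KT_H11_Cas9 (45 mice, 20 above 0), with a mean of 0.04 ± 0.07 (adjusted p = 0.634, sign-flip permutation). In KT_H11_LSL-Cas9 the mean was -0.05 ± 0.11 (17 mice, adjusted p = 0.839), and in KT 0.09 ± 0.04 (9 mice, exact adjusted p = 0.398). In the same test 64.7% of genes gave larger tumours in KT_H11_Cas9 and 5.88% in KT_H11_LSL-Cas9. Set against KT mice, 23.5% and 0% of genes did. Keap1 differed from KT by -0.06 ± 0.08 and -0.14 ± 0.12 (adjusted p = 0.563 and 0.687 by label permutation). Among tumours of at least 200 cells the KT_H11_Cas9 value was 0.23 ± 0.09 (38 mice, adjusted p = 0.0144), past the threshold.

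The 90th percentile of size differed by 0.19 ± 0.16 in KT_H11_Cas9 and 0.17 ± 0.19 in KT_H11_LSL-Cas9, neither past the threshold. Summed cells of all Keap1/inert tumours over inert/inert, number and size together, differed from KT by -0.73 ± 0.18 in KT_H11_Cas9 (0.604-fold, adjusted p = 0.0016 by permutation), where 17.6% of genes fell, and by -0.08 ± 0.31 in KT_H11_LSL-Cas9 (adjusted p = 0.968).

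The genes nearest to Keap1 in both readouts in KT_H11_Cas9, by distance over size and number on the log2 scale among 15 other genes, were Kmt2b, a histone H3K4 methyltransferase (0.095), the kinase Lkb1 (0.312) and Apc, the scaffold that keeps beta-catenin low (0.330). Kmt2b had a size of -0.0012 and a number of -1.06, close to both Keap1 values, while Lkb1 had a larger size (0.27) and Apc a smaller loss in number (-0.67). Kmt2b/inert had only 251 tumours in 45 KT_H11_Cas9 mice, with a median of 5 a mouse. Its size rests on the mice with 5 or more, and the distances carry no error.

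Adding Keap1 to a partner lowered tumour number beside most partners. The value is the log2 ratio of pair to partner/inert tumours, Cas9 minus KT. In KT_H11_Cas9 it fell for 13 of 15 partners, with a median of -0.77 and a range of -1.08 to -0.16, and 33.8% of all second steps in the pool fell. In KT_H11_LSL-Cas9 it fell for 6 of 15 (median -0.28) against 12.9%. All 15 pairs were fewer than inert/inert relative to KT in KT_H11_Cas9, where 57.4% of pairs were, and 9 of 15 were in KT_H11_LSL-Cas9, where 27.9% were. These comparisons share their KT mice and their Keap1 guides, so the partners are not independent of each other.

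**Figure D3:**
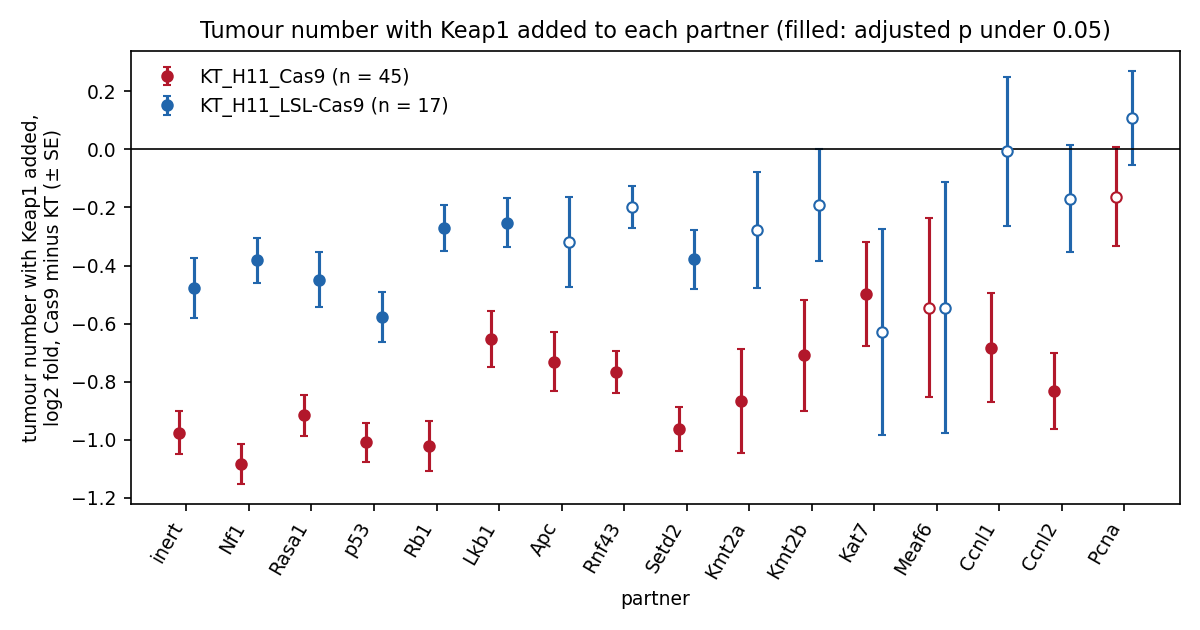
The horizontal axis lists the partners, with Keap1 beside inert first, and the vertical axis the log2 fold of tumour number with Keap1 added, Cas9 minus KT, with SE. In KT_H11_Cas9 the values lie between -1.08 beside Nf1 and -0.16 beside Pcna.

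Beside Nf1 and Rasa1 the loss was near that of Keap1 alone. Both encode GTPase-activating proteins. With Keap1 added to Nf1 the ratio was -0.48 to -0.21 in KT and -2.34 through -1.37 to -0.58 in KT_H11_Cas9, so that 45 of 45 mice lay below every KT mouse. The difference was -1.08 ± 0.07, a 0.472-fold number (adjusted p = 6.04e-05 by permutation). Beside Rasa1 it was -0.92 ± 0.07, with 44 of 45 mice below. In KT_H11_LSL-Cas9 the values were -0.38 ± 0.08 and -0.45 ± 0.09, both past the threshold.

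Beside p53, the transcription factor of the DNA damage response, the ratio was -0.73 to -0.29 in KT and -2.20 through -1.43 to -0.84 in KT_H11_Cas9, with no overlap. The difference was -1.01 ± 0.07 in KT_H11_Cas9 and -0.58 ± 0.09 in KT_H11_LSL-Cas9 (adjusted p = 6.04e-05 and 0.000194 by permutation). Beside Rb1, the brake on E2F at the entry into S phase, it was -1.02 ± 0.09 and -0.27 ± 0.08, both past the threshold. Beside the kinase Lkb1, which activates AMPK, it was -0.65 ± 0.10 and -0.25 ± 0.08, both past the threshold.

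In the Wnt group the loss was -0.73 ± 0.10 beside Apc and -0.77 ± 0.07 beside Rnf43, a ubiquitin ligase that removes Wnt receptors, in KT_H11_Cas9. In KT_H11_LSL-Cas9 neither passed, at -0.32 ± 0.15 and -0.20 ± 0.07. Among the histone methyltransferases, Setd2, which writes H3K36 trimethylation, gave -0.96 ± 0.08 with 45 of 45 mice below every KT mouse, and -0.38 ± 0.10 in KT_H11_LSL-Cas9. Kmt2a gave -0.87 ± 0.18 and Kmt2b -0.71 ± 0.19 in KT_H11_Cas9, and neither passed in KT_H11_LSL-Cas9, at -0.28 and -0.19.

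The pairs with the remaining partners were small. Keap1/Kat7, Keap1/Meaf6, Keap1/Ccnl1 and Keap1/Ccnl2 had 113, 37, 155 and 242 tumours in 45 KT_H11_Cas9 mice. Kat7 is a histone acetyltransferase and Meaf6 a subunit of its complex, and Meaf6 was in place 1 of the construct alone. Keap1 added to Kat7 gave -0.50 ± 0.18 (adjusted p = 0.0344, permutation), to Ccnl1 -0.68 ± 0.19 and to Ccnl2 -0.83 ± 0.13, all 3 past the threshold, and to Meaf6 -0.55 ± 0.31 (adjusted p = 0.16). Keap1/Meaf6 had a median of 1 tumour a mouse and none in 22 mice, so many of its ratios rest on the 0.5 added. With tumours of all mice summed, the values were -0.62 for Kat7, -0.65 for Ccnl1, -0.89 for Ccnl2 and -1.04 for Meaf6. These sums were not tested. Ccnl1 and Ccnl2 encode the cyclins L, which take part in splicing. None of these 4 passed in KT_H11_LSL-Cas9.

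Pcna, the sliding clamp of DNA replication, was the partner with the smallest change in number on adding Keap1 in KT_H11_Cas9. Keap1/Pcna tumours numbered 94 in KT_H11_Cas9, 0 to 7 in a mouse with none in 7 mice, against 2452 in KT. Keap1 added to Pcna gave -0.16 ± 0.17 in KT_H11_Cas9 (adjusted p = 0.461, permutation) and 0.11 ± 0.16 in KT_H11_LSL-Cas9. The departure from the product of both single effects was 0.81 ± 0.18 in KT_H11_Cas9 (adjusted p = 0.00181), the only one of 15 Keap1 interactions in number to pass, where 11.8% of pairs passed above 0. Under a permutation of the plain difference, or within either spike-in total, none of the 15 passed, and with a pseudocount of 1, 5 passed. With so few tumours a mouse, many ratios sit near the value that a count of 0 gives.

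The Cas9 genotypes were also compared directly. The step with Keap1 added was lower in KT_H11_Cas9 than in KT_H11_LSL-Cas9 beside 10 of 15 partners, where 21% of all steps were, and the Keap1 pair against inert/inert was lower for 12 of 15, where 44.1% of pairs were. The gap with Keap1 added was -0.75 beside Rb1 and -0.70 beside Nf1.

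Read from the Keap1 side, 3 of 15 partners raised number and 5 lowered it in KT_H11_Cas9, shares near those of the pool, where 22.8% of steps rose and 33.8% fell. Added to Keap1, Nf1 raised it by 0.30 ± 0.07, Rasa1 by 0.26 ± 0.08 and p53 by 0.19 ± 0.07. Pcna lowered it by -3.35 ± 0.15, Lkb1 by -0.86 ± 0.09, Kmt2b by -0.80 ± 0.18, Apc by -0.43 ± 0.10 and Setd2 by -0.30 ± 0.07. In KT_H11_LSL-Cas9 Nf1 raised number by 0.33 ± 0.07, where 10.3% of steps rose, and Pcna lowered it by -1.11 ± 0.12, where 12.9% fell.

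The gap between the Keap1 guides recurred beside the partners. In KT_H11_Cas9 guide V2 minus guide V1 in number was below 0 beside all 15 partners, with a median of -1.11 and a range of -1.69 to -0.49, and it passed beside 13 of 15, the exceptions being Kat7 and Pcna. In the pool 26.2% of such guide comparisons fell. In KT_H11_LSL-Cas9 it passed beside Nf1 (-0.79 ± 0.14), Rb1 (-0.65 ± 0.17) and Rnf43 (-0.75 ± 0.15), against 10%. With guide V1 alone, number fell beside 7 of 15 partners in KT_H11_Cas9 and beside 1 in KT_H11_LSL-Cas9. With all guides, 33.8% and 12.9% of all second steps in the pool fell. This comparison of guides was chosen after the data were seen.

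Size moved beside fewer partners. In KT_H11_Cas9 adding Keap1 lowered size beside 4 of the 14 partners that could be tested, Nf1, p53, Rasa1 and Rnf43, against 5% of all steps, and none passed upward. Steps in mean size count each gene beside inert together with each second gene added. Keap1/Meaf6 never reached 5 tumours in a mouse of either Cas9 genotype. In KT_H11_LSL-Cas9 none of 14 passed by permutation, 1 had an unadjusted p under 0.05, and 0.897% of steps fell. In KT none of 15 passed and 3 had an unadjusted p under 0.05.

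With Keap1 added to Nf1 the size difference ran from -1.27 through a median of -0.30 to 0.85, below 0 in 38 of 45 mice, with a mean of -0.32 ± 0.06 (0.800-fold, adjusted p = 0.00022 by sign flips). Nf1/inert tumours were larger than inert/inert by 0.43 ± 0.06, and Keap1/Nf1 tumours by 0.11 ± 0.07, which missed the threshold. Beside p53 the difference ran from -1.05 through -0.27 to 0.96, also below 0 in 38 of 45 mice, with a mean of -0.27 ± 0.06 (adjusted p = 0.000917). Beside Rasa1 the mean was -0.23 ± 0.05 (34 of 45 mice below 0) and beside Rnf43 -0.20 ± 0.05 (32 of 45).

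The same 4 of 14 partners had an interaction in size below 0, a share near the 24.2% of pairs in the pool. The values were -0.36 ± 0.09 for Nf1, -0.30 ± 0.09 for p53, -0.27 ± 0.07 for Rasa1 and -0.24 ± 0.09 for Rnf43. The median interaction in size was -0.213 over the Keap1 pairs and -0.210 over all pairs of the pool. Values below 0 were thus not particular to Keap1. Set against KT mice, the step passed beside Nf1 (-0.40 ± 0.07, adjusted p = 0.0022 by permutation) and p53 (-0.30 ± 0.08, adjusted p = 0.0383), where 3.64% of steps fell, and no Keap1 interaction did. Among tumours of at least 200 cells none of the 9 partners that could be tested passed, and near a spike-in total of 300000 cells 1 of 13 did. Between the Cas9 genotypes no Keap1 value in size passed the threshold.

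**Figure D4:**
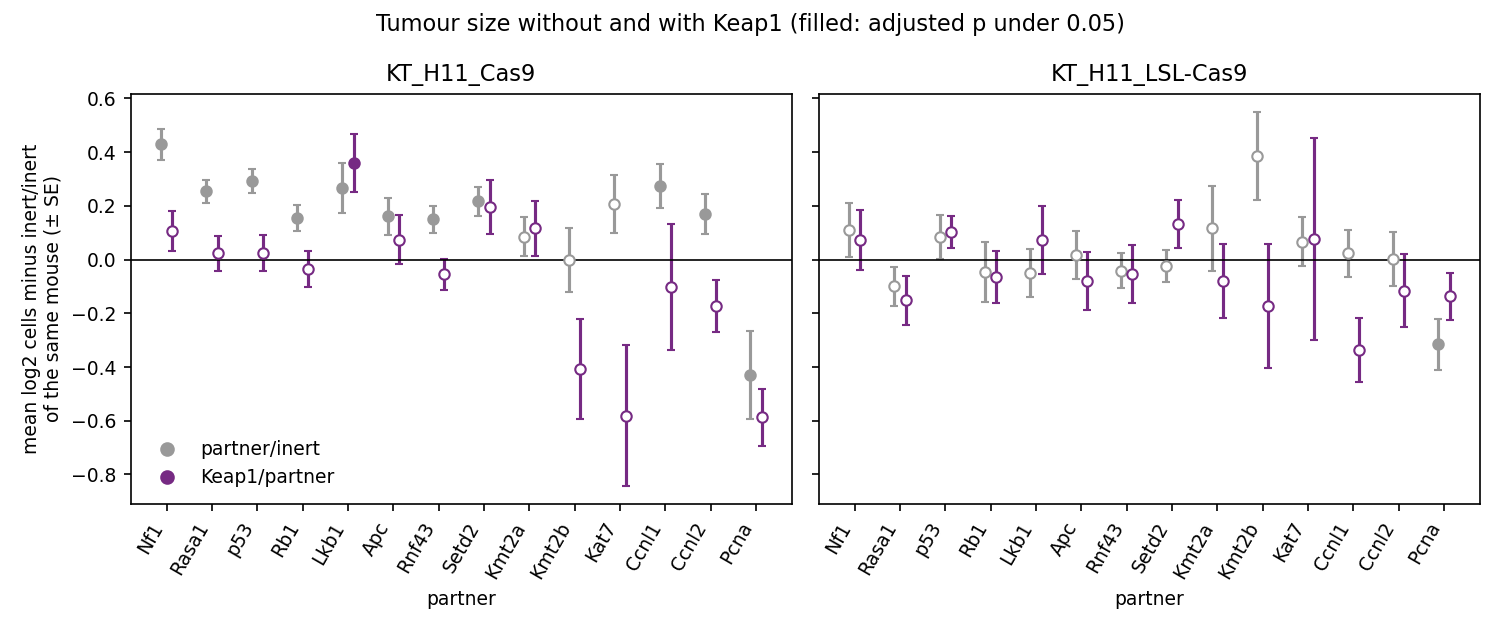
The vertical axis is the mean log2 cells minus that of inert/inert tumours of the same mouse, with SE, for each partner beside inert and beside Keap1. In KT_H11_Cas9 Nf1 stands at 0.43 beside inert and 0.11 beside Keap1, while Lkb1 stands at 0.27 and 0.36.

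Keap1/Lkb1 was the only 1 of 14 Keap1 pairs larger than inert/inert in KT_H11_Cas9, where 36.5% of pairs were. Its size difference ran from -0.98 through a median of 0.36 to 2.27, with a mean of 0.36 ± 0.11 (44 mice, 28 above 0, adjusted p = 0.00628 by sign flips). Adding Lkb1 to Keap1 raised size by 0.32 ± 0.12 (adjusted p = 0.0425 by sign flips), where 13.2% of steps rose, genes beside inert included. Adding Keap1 to Lkb1 gave 0.10 ± 0.13 (adjusted p = 0.71 by sign flips). With the median of log2 cells in place of the mean, the pair stood at -0.16 ± 0.09 and Lkb1 added to Keap1 at -0.06 ± 0.08, neither past the threshold. The mean and the median of this pair thus differ in sign.

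In KT_H11_Cas9 none of 1107 inert/inert tumours had 10000 cells or more, which allows a share of up to 0.333% (exact binomial 95% interval), and 7 of 1464 Keap1/inert tumours did (0.478%, interval 0.192 to 0.983). Keap1/Lkb1 had 26 of 511 (5.09%, in 24 mice) beside 46 of 1021 Lkb1/inert tumours (4.51%). Keap1/Setd2 had 34 of 885 (3.84%, interval 2.67 to 5.33, in 19 mice) beside 33 of 2141 Setd2/inert tumours (1.54%, interval 1.06 to 2.16). In KT_H11_LSL-Cas9 Keap1/Setd2 had 17 of 550 (3.09%) beside 7 of 891 Setd2/inert tumours (0.786%), and Keap1/Lkb1 had 13 of 420 (3.1%) beside 11 of 642 Lkb1/inert tumours (1.71%). The intervals cover counting error only, since tumours of a mouse share that mouse. The share is taken over listed tumours, and these were fewer with Keap1 added. A higher share thus need not mean more large tumours. In KT the pool gave 2789 Keap1/Setd2 and 3545 Setd2/inert tumours, and 2394 Keap1/Lkb1 and 3040 Lkb1/inert tumours.

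The share was then compared within mice, a test chosen after the data were seen. Against Keap1/inert it rose with Lkb1 by 4.86 ± 0.94 percentage points (44 mice, adjusted p = 0.000406 by permutation) and with Setd2 by 3.24 ± 0.95 (45 mice, adjusted p = 0.00474) in KT_H11_Cas9, where 10.8% of steps rose. In KT_H11_LSL-Cas9 these steps were 3.39 ± 1.64 with Lkb1 (18 mice, adjusted p = 0.267) and 2.12 ± 0.85 with Setd2 (18 mice, adjusted p = 0.222) by permutation, and neither passed. Keap1 added to Setd2 gave 2 ± 0.889 points in KT_H11_Cas9 (higher in 17 mice and lower in 10, adjusted p = 0.12) and 2.38 ± 0.765 in KT_H11_LSL-Cas9 (higher in 9 mice and lower in 1 of 18, adjusted p = 0.0812), where 1.46% of steps rose. Neither of these passed, and nor did Keap1 added to Lkb1. That step gave 0.743 ± 1.1 points in KT_H11_Cas9 (higher in 18 mice and lower in 18, adjusted p = 0.909 by permutation). In KT_H11_LSL-Cas9 it gave 2 ± 1.29 points (higher in 8 mice and lower in 5, adjusted p = 0.512 by permutation). 9 of the 34 large Keap1/Setd2 tumours came from 1 KT_H11_Cas9 mouse, and without it the share was 25 of 847 (2.95%). Both Keap1 guides and both Setd2 guides were among them, at 2.56% with Keap1 guide V1 and 6.33% with guide V2.

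**Figure D5:**
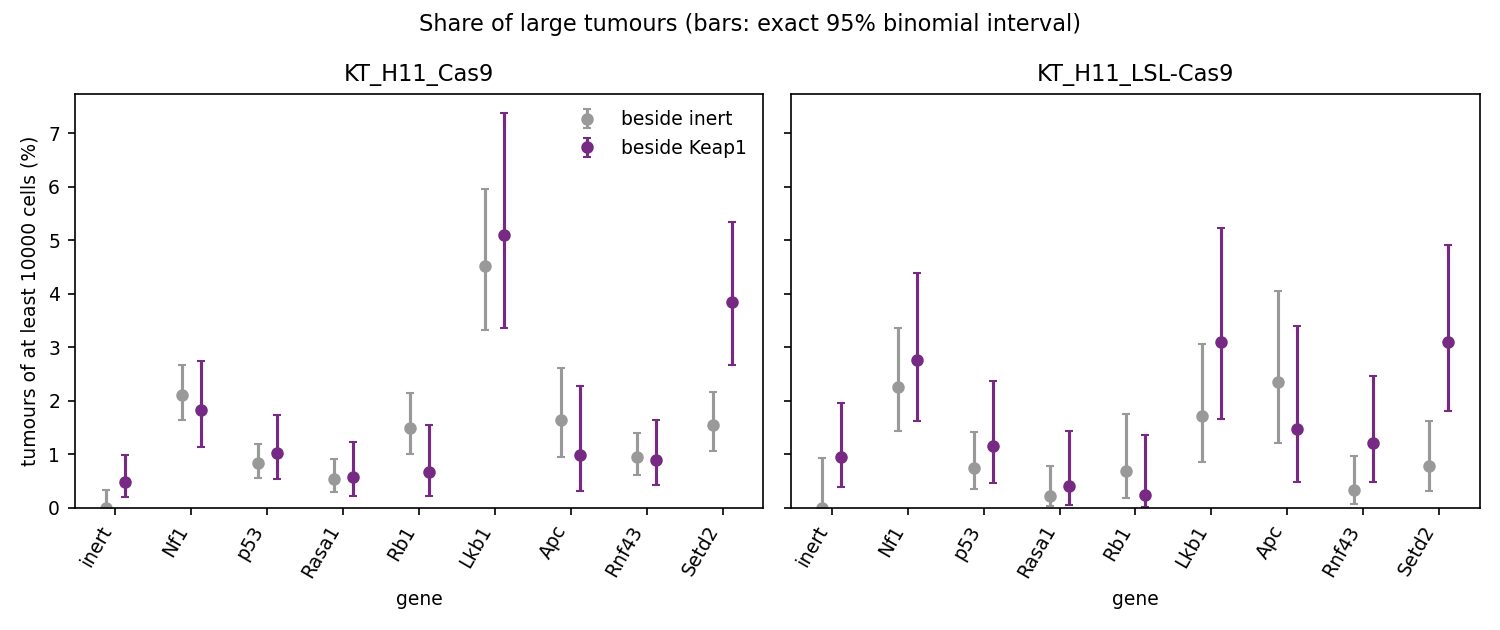
The vertical axis is the share of tumours of at least 10000 cells in percent, with exact 95% binomial intervals, for 8 partners and inert, beside inert and beside Keap1. Keap1/Setd2 stands at 3.84% in KT_H11_Cas9 and 3.09% in KT_H11_LSL-Cas9, above Setd2/inert in both. The share is of listed tumours, which were fewer with Keap1 added to Setd2.

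The largest tumour among the Keap1 pairs described here was a Keap1/Apc tumour of 1.1e+07 cells in 1 KT_H11_Cas9 mouse. It stood alone, as the next Keap1/Apc tumour of that genotype had 61154 cells. Of 511 Keap1/Apc tumours there 5 had 10000 cells or more (0.978%), beside 17 of 1041 Apc/inert tumours (1.63%). Beside inert, guide V2 in place 1 had a 95th percentile of 4998 cells in KT_H11_Cas9 (162 tumours), against 1370 for guide V1 in place 1 and 1112 for inert/inert. In place 2 guide V2 had 1331 cells there. In KT_H11_LSL-Cas9 guide V2 had 1244 cells in place 1 and 2060 in place 2, against 893 for inert/inert. These percentiles take tumours of all mice together, and their differences were not tested. The mean size of guide V2 in place 1 was 0.06 ± 0.25 above inert/inert in the 13 KT_H11_Cas9 mice with 5 or more such tumours.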

How the data were processed

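Barcode and guide amplicons of 74 mouse lungs were used as 1 table. Per the labels and the column names, the authors deposited raw read counts per tumour and a signal, which is the cell number they derived from spike-in barcodes. Cells were reads times 1 factor per mouse, checked on the values. How reads became this table is not stated in the labels. Groups followed the labelled genotype, and mice were the replicates.

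Size was compared within mice having at least 5 tumours of each kind, by sign-flip permutation. Number used a pseudocount of 0.5 and mice with at least 5 inert/inert tumours, by permuting mouse labels of the difference over its standard error. Tests were exact where at most 100000 arrangements existed, otherwise 100000 were drawn, giving a smallest p of 1e-05. All were 2-sided. p-values were adjusted by the Benjamini-Hochberg method over the whole pool, with 0.05 as threshold. Named genes were all partners, by role, and the 3 genes nearest to Keap1 in size and number. Some results are not reported here, so 15 partners are described. Keap1, the partners and the lists were chosen with earlier results of these data known. Alternatives changed the size minimum, summary, inert guides, pseudocount, test and mice. Functions were tested on simulated data. Python 3.11.15, numpy 2.4.6, pandas 2.3.3 and matplotlib 3.10.9 were used.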

Additional observations from a re-analysis of the deposited data

Results flagged for a closer look

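Number differed between the Cas9 genotypes by a test of the difference itself. For Keap1 beside inert, KT_H11_Cas9 minus KT_H11_LSL-Cas9 was -0.50 on the log2 scale. Of the pairs against inert/inert, 12 of 15 were lower in KT_H11_Cas9, where 44.1% of pairs in the pool were, by -2.74 for Pcna, -1.20 for Lkb1, -0.98 for Kmt2b, -0.86 for Apc, -0.80 for Setd2, -0.71 for Ccnl2, -0.57 for Rb1, -0.56 for Ccnl1, -0.55 for Rnf43, -0.53 for Nf1, -0.43 for Rasa1 and -0.40 for p53. With Keap1 added to a partner, 10 of 15 were lower, where 21% of steps were, by -0.75 for Rb1, -0.70 for Nf1, -0.68 for Ccnl1, -0.66 for Ccnl2, -0.59 for Kmt2a, -0.58 for Setd2, -0.57 for Rnf43, -0.47 for Rasa1, -0.43 for p53 and -0.40 for Lkb1. With a partner added to Keap1, 3 of 15 were lower, a share near the 21% of all steps in the pool. The gaps were -2.24 for Pcna, -0.70 for Lkb1 and -0.30 for Setd2. The mice of the 2 genotypes also differ in the letters of their names and in cells per read, and the part of either in these differences was not tested.

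40 sets of 4 to 10 mice were checked for a mouse far from the others, and chance marks about 1 in 20. 2 were marked, both in the size difference with Keap1 added. Beside Kmt2a in KT_H11_LSL-Cas9, mouse 17 stood at -1.13 and the other mice at -0.25 to 0.39. Beside Kmt2b in KT_H11_Cas9, mouse 9 stood at 0.011 and the other mice at -0.40 to -0.33.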

How the results depend on the processing

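The loss of Keap1/inert tumours kept its direction under every alternative run, between -1.83 and -0.42 in KT_H11_Cas9 and between -1.33 and -0.13 in KT_H11_LSL-Cas9. It missed the threshold in KT_H11_LSL-Cas9 with guide V1 alone (-0.13), in place 2 alone (-0.36) and near a spike-in total of 300000 cells (-0.45). Leaving out each KT mouse gave -0.99 to -0.96 and -0.49 to -0.47, with 12 to 14 partners losing number in KT_H11_Cas9, 5 to 6 in KT_H11_LSL-Cas9 and 1 interaction in number. The cause of the changes below was not tested. Partners with fewer tumours with Keap1 added numbered 13 in KT_H11_Cas9, and 7 with guide V1 alone and 6 with tumours of at least 500 cells. In KT_H11_LSL-Cas9 they numbered 6, and 3 with at least 200 cells, 1 with at least 500 cells, 1 with guide V1 alone, 1 in place 2 alone and 3 under the plain difference. Interactions in number above 0 numbered 1, and 7 with at least 200 cells, 5 with at least 500 cells, 5 with a pseudocount of 1, 8 with guide V2 alone, 3 with NE counted as inert, and 0 in place 2 alone, within either spike-in total, for names that begin with LA and under the plain difference. Size beside inert in KT_H11_Cas9 passed at 0.23 with at least 200 cells.

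Partners with smaller tumours with Keap1 added numbered 4, and 0 with at least 200 or 500 cells, 1 with NT and EGFP guides alone as inert, 1 near a spike-in total of 300000 cells, 1 with guide V2 alone, 1 in place 2 alone and 2 against KT mice. Interactions in size below 0 numbered 4, and 0 with at least 500 cells, near 300000 cells, in place 2 alone, for the median and against KT mice, 1 with safe guides alone, and 2 near 100000 cells and with guide V2 alone. Pairs larger than inert/inert numbered 1, and 4 with at least 200 cells, 2 with same-guide constructs kept, and 0 with at least 500 cells, near 300000 cells, with guide V1 or V2 alone, in place 1 or 2 alone, for the median and with at least 10 tumours.

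Several single values turned and lost their call. With at least 500 cells these were Keap1 added to p53 (0.33) and Rnf43 (0.14) in size, its interaction with p53 in size (0.12), and number with Kmt2b (0.17) and, in KT_H11_LSL-Cas9, Lkb1 (0.25). For the median they were the Keap1/Lkb1 pair (-0.16) and Lkb1 added to Keap1 (-0.058). With guide V1 alone they were number with Kmt2a (0.074) and, in KT_H11_LSL-Cas9, Rb1 (0.040).

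Guide, place and NE alternatives and those against KT were added after the data were seen. Settings near 100000 cells and for LA names could not run in KT_H11_LSL-Cas9, and NT and EGFP guides alone left too few inert/inert tumours for number. Asking for at least 20 tumours per mouse left the KT_H11_LSL-Cas9 number at -0.48. No paired analysis was possible because the labels give no replicate numbers that pair mice of different genotypes. This concerns comparisons between genotypes, and sizes, guides and shares were set against each other within mice. Pairs with under 5 tumours in most mice limit what size can show.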
